A study of Mus musculus with 6 samples.

Results

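Basement membranes are thin sheets of matrix that underlie epithelium and endothelium and surround muscle, fat and nerve cells. The 32 genes described here encode their components. They were chosen by name and function, but with earlier results of these data known. They are 10 laminin chains, 6 type IV collagen chains, 3 other collagens, 4 linkers and proteoglycans, and 9 attachment proteins, receptors and enzymes. All 32 were among the 23279 genes measured.

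RNA of whole fetal liver was compared on 6 Affymetrix arrays, 3 of livers labelled knockout and 3 of control livers, all from mouse embryos at embryonic day 11.5. The knockout group is named Stab2-Cre;Gata4fl/fl, and the titles of the controls read Stab2Cre;Gata4 heterozygous, so both groups are labelled as carrying the Cre. The parents were Stab2-Cretg/wt;Gata4fl/wt and Gata4fl/fl mice, and the floxed line is given as B6;129-Gata4tm1.1Sad/J. The Cre is driven by Stab2, a gene of sinusoidal endothelium, so other liver cells are not its target. The labels call the replicates biological, but the number of embryos behind an array and their litters are not stated by the labels. The series title asks what endothelial GATA4, a zinc-finger transcription factor, does in liver development and embryonic blood formation.

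Laminins are trimers of an alpha, a beta and a gamma chain that polymerise into a first network on the cell surface. Type IV collagens form a second network, and nidogens and heparan sulfate proteoglycans tie the networks together. Receptors such as integrins and dystroglycan anchor the sheet to the cell. Sinusoids of the adult liver are known for lacking a continuous basement membrane, unlike capillaries of most other organs.

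The deposited values are log2 expression values, so a difference of 1 is a 2-fold change. Gata4 read 10.38, 10.26 and 10.64 in replicates 1, 2 and 3 labelled knockout and 9.90, 9.96 and 9.87 in the controls. It was higher, not lower, in livers labelled knockout (log2 difference 0.51, SE 0.12, limma adjusted p = 0.0409). Other liver cells also express Gata4, and the probe positions of this feature are not stated in the sources used here. The value is therefore no check of the deletion, and every direction below rests on the labels. That call was kept in 1 of the 6 fits that leave out an array, with adjusted p between 0.0366 and 0.144. Stab2 read 7.14, 6.32 and 6.99 in livers labelled knockout and 8.10, 8.22 and 8.02 in controls, 2.46-fold lower (adjusted p = 0.0161).

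The arrays were not alike in embryo sex or in genes typical of neighbouring tissue. Xist, the transcript of the inactive X chromosome, was high in 4 arrays, at 10.71, 10.34 and 10.31 in livers labelled knockout and at 10.19 in control replicate 2. It was low in the other controls, at 3.58 in replicate 1 and 3.96 in replicate 3. Control replicate 2 is therefore the only control of the same sex as the livers labelled knockout, and differences from it alone are given beside the main ones. Labelled knockout replicate 2 stood apart in a list of 10 genes of gut and lung bud epithelium, with a median of 1.16 above the control mean against 0.28 and 0.08 in replicates 1 and 3. Isl1 and Sox2, picked from that list after their values were seen, show it: its Isl1 read 9.83 and its Sox2 6.02, against at most 7.92 and 4.04 in the other arrays. Epcam (6.71), Shh (6.56), Sox9 (8.54) and Cldn6 (6.56) were also highest in that array. The remaining genes of the list, Cdx2 (4.88), Nkx2-1 (3.69), Pdx1 (4.96) and Cldn4 (4.81), were not. Which tissue the difference came from was not tested. Heart muscle genes varied inside both groups, with list medians of 0.94, -0.07 and -0.74 in control replicates 2, 1 and 3 and -0.85, -0.80 and 0.26 in labelled knockout replicates 1, 2 and 3. The part of these tissues in the results below was not tested.

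Basement membrane genes were more often higher than lower in livers labelled knockout. Past the threshold of an adjusted p of 0.05, 9 of the 32 rose and 0 fell by limma, and at an unadjusted p of 0.05 the numbers were 21 higher and 1 lower. Of all 23279 genes, 3.59% were called higher and 2.77% lower. At an unadjusted p of 0.05, 2578 of all genes were higher and 2667 lower by limma. That count over all genes was made for the main fit only. The 9 were the laminin chains Lama4, Lamb1 and Lamb2, the collagens Col4a1, Col15a1 and Col18a1, the linker Nid1, and Frem1 and Pxdn. The log2 difference was positive in 27 members, and its median over the 32 was 0.46, against -0.01 over all genes. In 22 members all livers labelled knockout lay above all controls, as in 13.0% of all genes. In 1 member, Tinagl1, all of them lay below, as in 14.3% of all genes. The members and the lists described below were chosen with earlier results of these data known. Their shares are therefore a description and no test. In RNA of a whole organ, fewer cells of a type and less RNA per cell cannot be told apart, and the same holds for a rise.

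**Figure D1:**
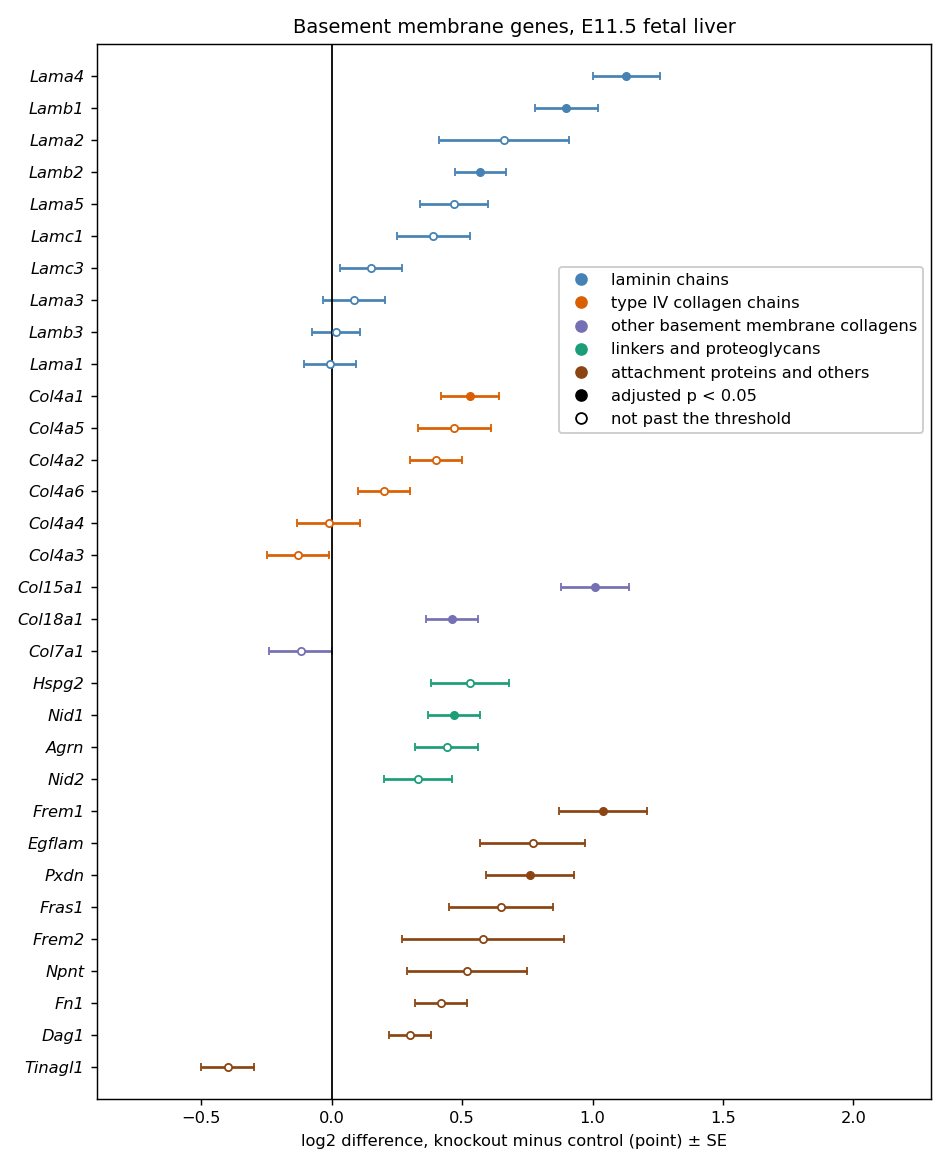
Log2 difference between livers labelled knockout and controls for each of the 32 genes, grouped by role, with the standard error of the limma fit as bars. Filled points are the 9 genes past the threshold, all to the right of 0, and Tinagl1 lies farthest to the left at -0.40.

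The number of members called changed with the arrays used. Without control replicate 3 no member passed, with 18 higher and 1 lower at an unadjusted p of 0.05, and the median difference was 0.36. Other lists, described below, lost calls in that fit too, macrophage markers from 10 to 2 of 13 and erythroid markers from 6 to 1 of 11. No list gained calls, so the loss was not particular to the members. Control replicate 3 was the lowest control for 25 of the 32 genes, while control replicate 2 was the highest for 20. Of the controls, leaving out replicate 1 left 4 members called and leaving out replicate 2 left 3. Of the livers labelled knockout, leaving out replicate 1, 2 or 3 left 6, 8 or 4. With a term for sex, which sets the livers labelled knockout against control replicate 2, no member passed by limma, and 11 were higher and 0 lower at an unadjusted p of 0.05. The median difference against that control was 0.30, with 25 of 32 positive. With the sex term 3 of all 23279 genes passed.

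**Figure D2:**
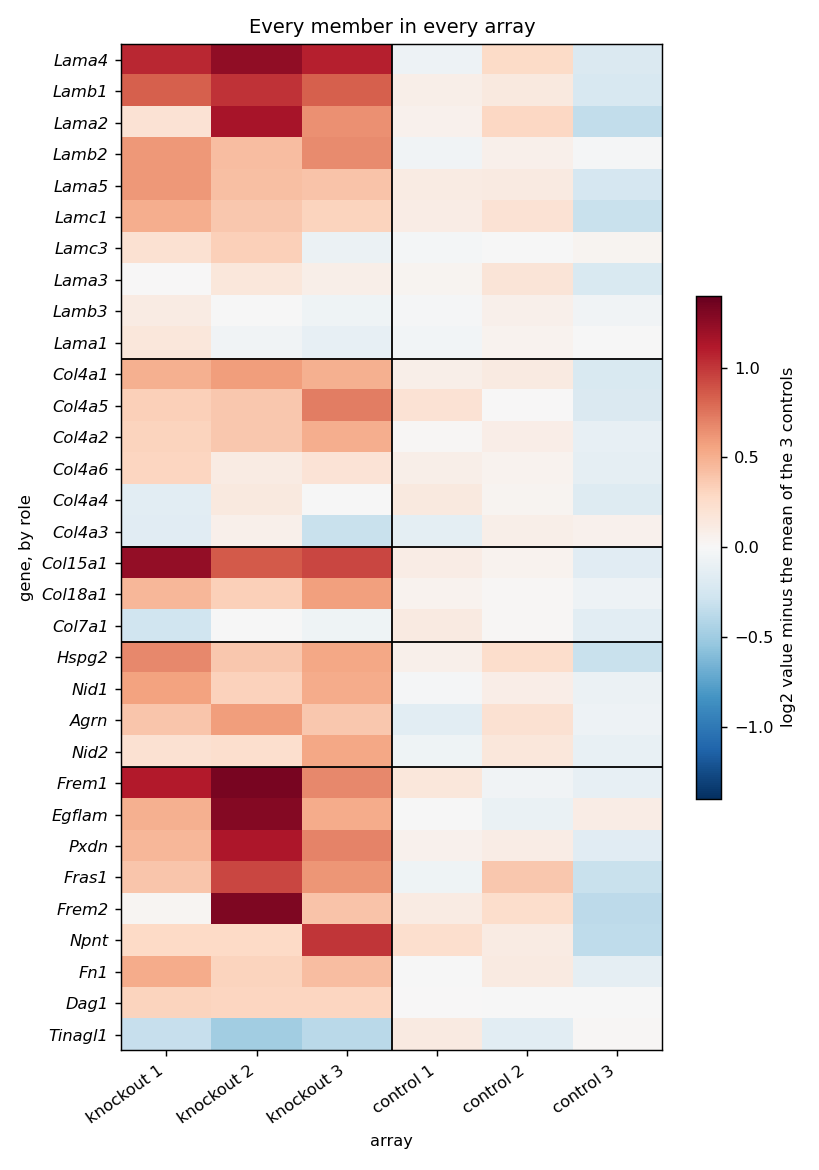
Value of each gene in each of the 6 arrays, as log2 value minus the mean of the 3 controls (red above, blue below), with lines between the roles. Most rows are red in all livers labelled knockout, and control replicate 3 is the palest or bluest control for most genes.

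Among the alpha chains of laminin, which carry the receptor-binding globular end, Lama4 rose and the others did not pass. Lama4, the alpha chain typical of endothelial basement membranes, read 7.58, 7.77 and 7.61 in livers labelled knockout and 6.46, 6.80 and 6.32 in controls. Every liver labelled knockout was well above every control, with the highest control being replicate 2. The rise was 2.18-fold (log2 difference 1.13, SE 0.13, adjusted p = 0.00979) and was 0.86 against control replicate 2 alone. Of the leave-one-out fits, only that without control replicate 3 lost the call (adjusted p = 0.0536).

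Lama5, the broadly expressed alpha chain of mature epithelium and vessels, read 7.19, 7.00 and 6.98 in livers labelled knockout and 6.69, 6.71 and 6.34 in controls. The groups did not overlap, yet the difference of 0.47 did not pass (adjusted p = 0.065). Lama2, the alpha chain of muscle and nerve, read 5.42, 6.37 and 5.86 against 5.28, 5.51 and 4.87 in controls. Its groups overlapped and its highest value was that of labelled knockout replicate 2, without which its difference of 0.66 became 0.42 (adjusted p = 0.161 with that array and 0.311 without). Lama1, an alpha chain of early embryonic epithelium, read 6.20, 5.99 and 5.93, and the controls lay inside that range with 6.09 as the highest (-0.0062, adjusted p = 0.982). Lama3, the alpha chain of skin and other epithelia, read 4.03, 4.19 and 4.11 against 4.06, 4.21 and 3.81 (0.086, adjusted p = 0.76). The sign of Lama1 and Lama3 changed with the array left out.

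The beta chains Lamb1 and Lamb2 rose. Lamb1, the beta chain of most embryonic laminins, read 9.14, 9.32 and 9.14 in livers labelled knockout and 8.39, 8.44 and 8.08 in controls. Its lowest liver labelled knockout was far above its highest control. It rose 1.86-fold (log2 difference 0.90, SE 0.12, adjusted p = 0.0126), by 0.76 against control replicate 2, and lost its call only without control replicate 3 (adjusted p = 0.0536). Lamb2, the beta chain of kidney filters, synapses and vessel walls, read 7.72, 7.54 and 7.77 against 7.06, 7.18 and 7.09, with no overlap. It rose 1.48-fold (0.57, SE 0.099, adjusted p = 0.0225). That call was lost without labelled knockout replicate 3 or any 1 control, with adjusted p up to 0.094. Lamb3, an epithelial beta chain, read 4.59, 4.47 and 4.42 against 4.46, 4.55 and 4.43 and did not pass (0.015, adjusted p = 0.957).

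The gamma chains did not pass. Lamc1, the gamma chain shared by most laminin trimers, read 9.62, 9.49 and 9.43 in livers labelled knockout and 9.22, 9.32 and 8.81 in controls. The groups did not overlap, but control replicate 3 was far below the other controls, and the difference was 0.39 against all controls and 0.19 against replicate 2 (adjusted p = 0.149). Lamc3 read 4.83, 4.95 and 4.54 against 4.59, 4.61 and 4.66, with overlap (0.15, adjusted p = 0.534), and its difference was 0.064 without labelled knockout replicate 2 and 0.27 without replicate 3. Over the 10 laminin chains, 3 rose, 0 fell and 7 did not pass, with a median difference of 0.43, and 6 were higher and 0 lower at an unadjusted p of 0.05.

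**Figure D3:**
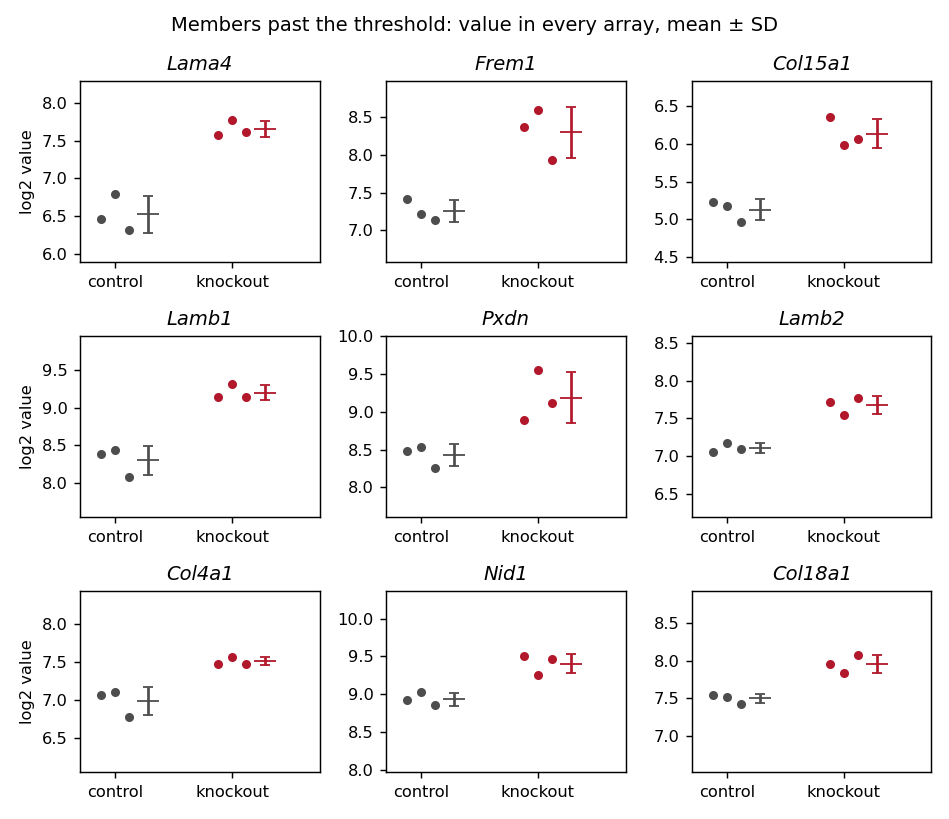
Log2 value in every array for the 9 genes past the threshold, with mean ± SD of each group (n = 3) beside the points; each panel spans the same height on the log2 axis. In every panel all livers labelled knockout lie above all controls, with Lama4, Frem1 and Col15a1 the farthest apart.

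Type IV collagen genes lie in head-to-head pairs, and 1 of the 6 chains, Col4a1, rose. Col4a1 and Col4a2 encode the chains of the collagen trimer found in nearly all basement membranes. In the RefSeq promoter table of GRCm38.p6 their starts lie on opposite strands of chromosome 8, at 11312826 and 11312805, so that the first 22 bases of both genes are shared. This stretch of the plus strand, chr8:11312801-11312830, shows the shared bases in capitals, because both genes of the pair start inside it.
Col4a1 and Col4a2: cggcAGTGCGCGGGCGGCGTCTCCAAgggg
Col4a1 read 7.48, 7.57 and 7.48 in livers labelled knockout and 7.07, 7.11 and 6.77 in controls. The groups did not overlap, and it rose 1.45-fold (0.53, SE 0.11, adjusted p = 0.0355), by 0.41 against control replicate 2. The call was lost in all 6 leave-one-out fits, with adjusted p between 0.0604 and 0.111. Its partner Col4a2 read 6.88, 6.95 and 7.08 against 6.59, 6.67 and 6.46, also with no overlap, and its difference of 0.40 lay just outside the threshold (SE 0.10, adjusted p = 0.0556).

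Col4a3 and Col4a4, chains of the kidney filter and a few other specialised membranes, did not pass. Col4a3 read 4.14, 4.36 and 3.98 in livers labelled knockout and 4.16, 4.37 and 4.35 in controls (-0.13, adjusted p = 0.605), and its difference ranged from -0.23 without labelled knockout replicate 2 to -0.042 without replicate 3. Col4a4 read 4.06, 4.34 and 4.20 against 4.34, 4.25 and 4.03 (-0.012, adjusted p = 0.974). Both groups overlapped in both genes. Col4a5 and Col4a6, the X-linked pair, start 1343 bases apart on opposite strands. Col4a5 read 5.93, 5.97 and 6.31 against 5.80, 5.60 and 5.39, with no overlap (0.47, adjusted p = 0.0981), and the same 0.47 stood against the same-sex control. Col4a6 read 5.22, 5.03 and 5.11 in livers labelled knockout, while its controls lay lower, with a mean of 4.92 ± 0.11 (SD, n = 3) and no overlap (0.20, adjusted p = 0.315). Over the 6 chains, 1 rose, 0 fell and 5 did not pass, with a median of 0.30, and 3 were higher and 0 lower at an unadjusted p of 0.05.

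Col15a1 and Col18a1, collagens with interrupted helices that carry antiangiogenic end fragments, rose. Col15a1, which sits between basement membrane and interstitial fibres of vessels and muscle, read 6.36, 5.99 and 6.06 in livers labelled knockout and 5.23, 5.18 and 4.97 in controls. All livers labelled knockout were clearly above all controls. It rose 2.02-fold (1.01, SE 0.13, adjusted p = 0.0106) and by 0.96 against control replicate 2, with 0.90 to 1.08 when 1 array was left out. The call was lost only without control replicate 3 (adjusted p = 0.0537). Col18a1, the precursor of endostatin, read 7.96, 7.83 and 8.07 against 7.55, 7.52 and 7.43. Its groups did not overlap and it rose 1.37-fold (0.46, SE 0.099, adjusted p = 0.0375), with 0.44 against control replicate 2 and the call kept in 1 of 6 leave-one-out fits (adjusted p 0.0388 to 0.138). Col7a1, the anchoring fibril collagen of skin, read 4.94, 5.21 and 5.16 against 5.35, 5.24 and 5.07 and did not pass (-0.12, adjusted p = 0.641).

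The linkers lay above the controls without exception, and 1 of 4 passed. Nid1, a nidogen that bridges laminin and type IV collagen, read 9.50, 9.26 and 9.46 in livers labelled knockout and 8.92, 9.03 and 8.86 in controls. It rose 1.39-fold (0.47, SE 0.10, adjusted p = 0.0401), by 0.37 against control replicate 2, and kept its call in 1 of 6 leave-one-out fits (adjusted p 0.0355 to 0.145). Its paralog Nid2 read 8.84, 8.86 and 9.17 against 8.57, 8.79 and 8.53, where labelled knockout replicate 1 was only just above control replicate 2 (0.33, adjusted p = 0.167).

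Hspg2, the large heparan sulfate proteoglycan perlecan, read 9.35, 9.05 and 9.21 against 8.74, 8.92 and 8.36 in controls. The groups did not overlap, and the spread among controls was wide (0.53, SE 0.15, adjusted p = 0.0854, and 0.28 against control replicate 2). Agrn, the proteoglycan agrin, read 8.63, 8.83 and 8.62 against 8.10, 8.46 and 8.18, also with no overlap (0.44, adjusted p = 0.0714, and 0.23 against control replicate 2). At an unadjusted p of 0.05, 4 of the 4 linkers were higher.

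Of the FRAS and FREM proteins, which form a complex below embryonic epithelia and mesothelium, Frem1 rose. It read 8.37, 8.59 and 7.93 in livers labelled knockout and 7.42, 7.21 and 7.14 in controls, with no overlap. The rise was 2.06-fold (1.04, SE 0.17, adjusted p = 0.0181) and was 1.09 against control replicate 2 and 0.89 without labelled knockout replicate 2 (adjusted p = 0.0292). Leaving out control replicate 2 gave an adjusted p of 0.0601 and leaving out control replicate 3 one of 0.0829, so both ended the call. Fras1 read 8.04, 8.58 and 8.26 against 7.59, 8.02 and 7.33, with control replicate 2 just below the lowest liver labelled knockout (0.65, adjusted p = 0.0988, and 0.27 against that control). Frem2 read 6.88, 8.16 and 7.25 against 6.97, 7.10 and 6.49, with overlap and with labelled knockout replicate 2 far above the rest. Its difference of 0.58 became 0.21 without that array (adjusted p = 0.33 and 0.635).

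Pxdn, the peroxidase that cross-links type IV collagen through sulfilimine bonds, read 8.89, 9.55 and 9.12 in livers labelled knockout and 8.48, 8.53 and 8.26 in controls. It rose 1.70-fold (0.76, SE 0.17, adjusted p = 0.0404). Without labelled knockout replicate 2, its highest array, the difference was 0.58 and the call was lost (adjusted p = 0.053), and in all it was kept in 1 of 6 leave-one-out fits (up to 0.146). Egflam, the dystroglycan ligand pikachurin, read 5.61, 6.40 and 5.64 against 5.11, 5.02 and 5.22, with no overlap (0.77, adjusted p = 0.0658). Without labelled knockout replicate 2 its difference was smaller, 0.51, and passed (adjusted p = 0.0442). Of the 32 members, 15 had their highest value among livers labelled knockout in replicate 2, and 10 had their lowest there. That array also had the highest median of the gut and lung bud list. The members' median distance from the control mean in that array was 0.37, against 0.36 and 0.51 in replicates 1 and 3.

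Dag1 and Fn1 showed small differences with little spread. Dag1, the laminin receptor dystroglycan, read 10.20, 10.18 and 10.18 in livers labelled knockout and 9.89, 9.88 and 9.88 in controls. The SD within groups was 0.014 and 0.003, and the moderated fit gave a difference of 0.30 with SE 0.082 (adjusted p = 0.0676). Fn1, the fibronectin of matrix and plasma, read 12.19, 11.99 and 12.10 against 11.67, 11.80 and 11.55, with no overlap (0.42, SE 0.10, adjusted p = 0.0553). With a trend of variance on level both passed, at adjusted p = 0.031 for Dag1 and 0.0167 for Fn1. Npnt, the integrin ligand nephronectin, read 7.28, 7.28 and 8.00 against 7.24, 7.12 and 6.64. Its groups were separated by a narrow gap, and labelled knockout replicate 3 was the highest (0.52, adjusted p = 0.223).

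Tinagl1, a secreted matrix protein of vessel walls related to cathepsins, was the member with all livers labelled knockout below all controls. It read 7.13, 6.97 and 7.08 in livers labelled knockout and 7.58, 7.31 and 7.47 in controls. The difference of -0.40 did not pass (SE 0.10, adjusted p = 0.0631), and against control replicate 2, the lowest control, it was -0.25. With the 50% of genes of lowest mean level left out it passed as lower (adjusted p = 0.0381). That fit tested fewer genes and estimated its variance prior anew, and the part of each was not tested.

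The RefSeq promoter table of GRCm38.p6 held 23 of the 32 members, 8 of them called. The 250 bases before each start were searched on both strands for 3 strings. The GATA string, AGATAA or TGATAA or AGATAG or TGATAG, was found for Tinagl1 and Col4a6 and for none of the 8 called members, that is in 8.7% of members against 29.7% of all 27025 genes in the table. The GC box core GGGCGG was found in 60.9% of members against 35.4% of all genes, with 4 of the 8 called members among them. The hypoxia element core ACGTG was found in Col4a4 and Pxdn, 8.7% of members against 18.5% of all genes. These matches are of letters only and do not show that a factor binds. The windows are shown for Lamb1 and Col15a1, which have the most stable calls among members in the table, and for Tinagl1, the member lowest in livers labelled knockout. Capitals mark matches on either strand to the GATA, GC box or hypoxia strings. The Lamb1 window is chr12:31265043-31265292 on the plus strand, the Col15a1 window chr4:47207762-47208011 on the plus strand, and the Tinagl1 window, before the outer of its 2 starts, chr4:130175123-130175372 on the minus strand.
Lamb1: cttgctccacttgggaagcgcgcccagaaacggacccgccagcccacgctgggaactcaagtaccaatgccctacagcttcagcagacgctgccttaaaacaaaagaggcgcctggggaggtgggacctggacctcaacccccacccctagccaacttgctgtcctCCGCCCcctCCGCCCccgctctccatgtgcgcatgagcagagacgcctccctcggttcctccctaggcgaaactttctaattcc
Col15a1: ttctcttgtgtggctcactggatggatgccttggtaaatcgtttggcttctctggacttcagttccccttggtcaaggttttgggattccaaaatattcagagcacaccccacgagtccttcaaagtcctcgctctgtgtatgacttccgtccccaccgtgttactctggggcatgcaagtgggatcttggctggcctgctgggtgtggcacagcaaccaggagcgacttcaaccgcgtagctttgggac
Tinagl1: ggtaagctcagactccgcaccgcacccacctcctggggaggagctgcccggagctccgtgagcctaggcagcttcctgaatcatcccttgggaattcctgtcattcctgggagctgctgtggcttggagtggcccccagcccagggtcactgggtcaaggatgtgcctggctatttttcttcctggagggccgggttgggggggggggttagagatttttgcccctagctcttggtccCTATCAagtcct
The Lamb1 window holds the GC box core and no GATA string, the Col15a1 window none of the strings, and the Tinagl1 window a GATA string near the start.

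No dim member passed. Of the members, 8 had a mean below 5.5, the median of all values of the genes tested: Lama3, Lamb3, Lamc3, Col4a3, Col4a4, Col4a6, Col7a1 and Egflam. Of these 0 passed by limma (1 higher and 0 lower at an unadjusted p of 0.05), with a median difference of 0.05. Of the other 24, 9 rose, with a median of 0.50. The files used here give no background signal, so whether a dim gene was detected at all is not known, and no difference in a dim gene is shown to be absent. Tested only among the brighter 50% of genes, 14 of those 24 were called higher and 1 lower, with 1113 and 950 among all 11639 genes kept.

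**Figure D4:**
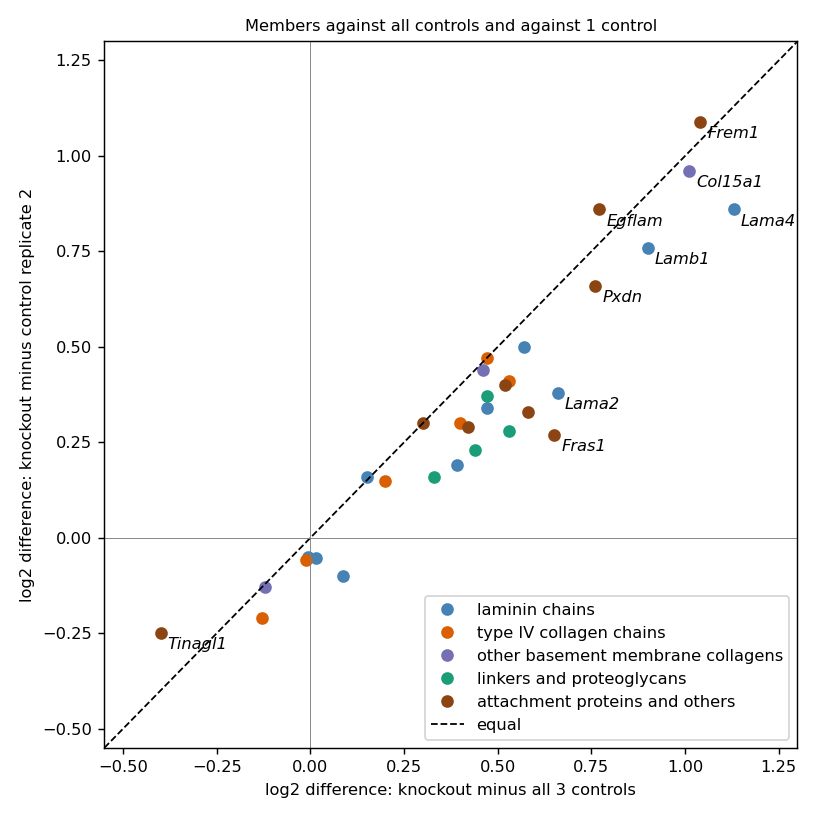
Log2 difference of each of the 32 genes against the mean of the 3 controls (horizontal) and against control replicate 2 alone (vertical), coloured by role; the dashed line marks equal values. Most points lie below the line, with Fras1 (0.65 and 0.27) far from it and Frem1 (1.04 and 1.09) and Egflam (0.77 and 0.86) above it. Tinagl1 (-0.40 and -0.25) is nearer to 0 against that control.

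Several genes for the folding, modification, export and cross-linking of collagen rose. Of 26 measured, 8 rose (30.8%, against 3.59% of all genes) and 0 fell, with 14 higher and 1 lower at an unadjusted p of 0.05 and a median difference of 0.30. Leaving out 1 array gave 2 to 9 called, with 2 without control replicate 3, 4 without labelled knockout replicate 3 and 5 without control replicate 2. Plod2, a lysyl hydroxylase, read 9.02, 8.79 and 9.05 in livers labelled knockout and 7.68, 7.63 and 7.49 in controls. These groups lie far apart, at 1.35 (SE 0.11, adjusted p = 0.00591), and the call was kept in all 6 leave-one-out fits. The prolyl hydroxylase genes P4ha1 (0.73, adjusted p = 0.0122) and P4ha2 (1.00, adjusted p = 0.00944) and the related P3h3 (0.87, adjusted p = 0.00813) rose. So did the cross-linking enzymes Lox (0.71, adjusted p = 0.0141) and Loxl2 (0.74, adjusted p = 0.0163). P3h3 kept its call in all 6 leave-one-out fits, P4ha1 and P4ha2 in 5, Lox in 4 and Loxl2 in 3. The other 2 called, named after their values were seen, were Loxl3, a relative of Lox, and Creb3l2, a transcription factor, and each kept its call in 1 of 6.

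A few receptors rose as well, and differences between the lists were not tested. Of 21 receptors of laminin and collagen, 3 rose (14.3%) and 0 fell (8 higher and 0 lower at an unadjusted p of 0.05), with a median of 0.18. These were Itga8, the integrin partner of nephronectin (0.99, adjusted p = 0.0117), the syndecan Sdc4 (0.63, adjusted p = 0.0297) and the collagen receptor Ddr2 (0.55, adjusted p = 0.0376). Itga8 kept its call in 5 of 6 leave-one-out fits, Sdc4 in 2 and Ddr2 in 1, with 0 of the list called without control replicate 3 and 1 without labelled knockout replicate 3. Of 22 further basement membrane genes, Hmcn1, a hemicentin, rose (0.69, adjusted p = 0.0355) and 21 did not pass, with a median of 0.10. That is 4.55% called higher, close to the 3.59% over all genes, and Hmcn1 kept its call in 1 of 6 leave-one-out fits (adjusted p up to 0.103). Of 13 genes for the sugar chain of dystroglycan, Large2 rose (0.71, adjusted p = 0.0436) and Gmppb fell by 0.64 (adjusted p = 0.0299), with a median of -0.06. That is 1 gene each way, 7.69% for those called higher, against 3.59% higher and 2.77% lower over all genes. Large2 lost its call in all 6 leave-one-out fits (adjusted p 0.0641 to 0.0993), and Gmppb kept its call in 1 (0.0362 to 0.116).

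Markers of several cell types that make basement membrane moved with these genes. Of 17 stellate cell and mesenchyme markers, 6 rose (35.3%, against 3.59% of all genes) and 0 fell, with a median of 0.52. Their mean log2 level was 8.84 to 9.06 in livers labelled knockout against 8.40 to 8.55 in controls. The 6 were Rgs5, Pdgfra, Hand2, Col1a2, Pdgfrb and Vim. Among the 11 that did not pass were Des (0.0046), Acta2 (-0.22), Lrat (0.019) and Ngfr (0.15). Of 15 markers shared by all endothelium, 4 rose (26.7%) and 0 fell (median 0.37, mean level 7.99 to 8.39 against 7.79 to 7.95). Of 12 mesothelial markers, 3 rose (25%) and 0 fell (median 0.33, mean level 7.48 to 7.75 against 7.20 to 7.33). Hepatoblast markers rose in 1 of 15 cases (median 0.20, mean level 9.92 to 10.26 against 9.86 to 9.96). That is 6.67%, close to the 3.59% over all genes. The ranges of the mean level did not overlap in the first 3 lists and overlapped in the last. Leaving out 1 array gave 1 to 7 called stellate and mesenchyme markers, 0 to 4 shared endothelial, 0 to 2 mesothelial and 0 to 5 hepatoblast ones. The 5 hepatoblast calls came without labelled knockout replicate 2, and each lowest count was reached without control replicate 3. The stellate and mesenchyme count was 1 also without control replicate 2 or labelled knockout replicate 3, and the shared endothelial count 0 also without control replicate 2.

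Markers of sinusoidal endothelium and blood cells moved the other way. Over all genes 2.77% were called lower. Of 9 sinusoidal markers, 6 fell and 0 rose (median -0.84, mean level 6.37 to 6.67 against 7.24 to 7.35). Of 11 erythroid markers, 6 fell (median -0.78, mean level 8.94 to 9.10 against 9.55 to 10.11), and of 13 macrophage markers, 10 fell (median -1.27, mean level 5.66 to 6.05 against 6.72 to 7.07). Leaving out 1 array gave 2 to 5, 1 to 6 and 2 to 11 called in these lists, lowest without control replicate 3. The erythroid count was 3 without control replicate 2 or without labelled knockout replicate 2 or 3. The values are shares of the RNA of the whole organ, so fewer blood cells and higher values of other cells' genes cannot be told apart here. The part of these cell types in the basement membrane result was not tested.

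**Figure D5:**
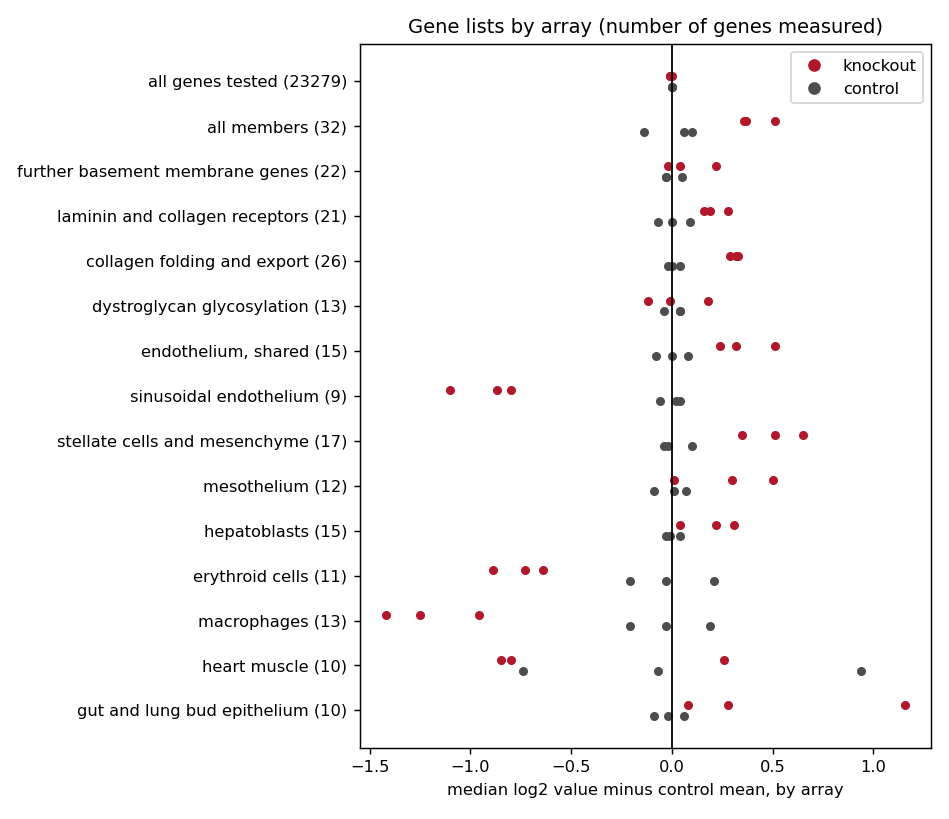
Each point is 1 array and gives a gene list's median distance from the control mean on the log2 scale (red for livers labelled knockout, grey for controls). The 32 basement membrane genes read 0.36, 0.37 and 0.51 in livers labelled knockout and -0.14 to 0.10 in controls, while sinusoidal, erythroid and macrophage lists lie far to the left.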

How the data were processed

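RNA of 6 fetal livers or liver pools was measured on Affymetrix arrays. The authors summarised the arrays with RMA into deposited log2 values; this is per the submitters' processing notes, and no version is stated. Sorted values were identical in all 6 arrays (2.55 to 13.91, median 5.43), so a common shift of all genes would be hidden. Precision is limited by having 3 arrays a group. Of 24479 features, 23281 were named through the platform annotation, 23156 with the symbol of a RefSeq table (GRCm38.p6), and 1 feature per gene, the one with the higher mean, left 23279 genes.

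The test was limma's moderated fit (version 3.58.1, R 4.3.3, with 4 residual and 4.06 prior degrees of freedom), run on all 6 arrays with no covariate. Benjamini-Hochberg adjustment covered all 23279 genes, and a call is an adjusted p below 0.05. No filter on dim features was applied. A 2-sided exact permutation test of 3 against 3 arrays cannot go below p = 0.1. The code was tested on simulated data. The p-values weigh each difference against the spread between these arrays, moderated by a variance prior drawn from all genes. Members and lists were chosen with earlier results of these data known. Every member is named, and from each pathway list at most 6 genes past the threshold. Whether the replicate numbers pair the arrays is not known. Deviations of same-numbered arrays correlated at -0.0518, -0.011 and -0.0767, which cannot exclude a pairing. Alternatives changed the variance prior, the filter on dim genes, array weights, centring, the genes tested and the threshold, added a replicate block or a sex term, or left out each array in turn. Genes on other lists that the annotation did not match were not analysed here.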

Additional observations from a re-analysis of the deposited data

How the results depend on the processing

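The number of members called, 9 in the main analysis, was 9 with a robust variance prior, median centring, the dimmest 25% of genes left out or X and Y genes left out, and 11 with a variance trend or array weights; the same 9 genes were called in each. It was 15 without the dimmest 50% of genes, where 8 members were not tested, 19 (18 higher and Tinagl1 lower) at an adjusted p below 0.1, and 5 with at least a 1.5-fold difference. With the replicate block it was 4, and whether the numbers pair the arrays is not known. With the sex term it was 0, with 11 at an unadjusted p of 0.05. Leaving out 1 array gave 0 to 8. The median log2 difference was 0.30 with the sex term, 0.36 to 0.51 when 1 array was left out, and 0.45 to 0.50 otherwise. With the sex term Lama3 (-0.10) and Lamb3 (-0.052) changed sign. Leaving out 1 array, the sign changed for Lama1 (-0.083 to 0.047), Lama3 (-0.023 to 0.18), Lamb3 (-0.033 to 0.052) and Col4a4 (-0.099 to 0.058), none of which passed. No other member changed sign under these alternatives. The cause of these changes was not tested, beyond that the alternatives with fewer arrays or a further term have fewer degrees of freedom. Signal over background was not used, which limits what the dim members show.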
